A study of Mus musculus with 7 samples.

Results

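The levels of 45 cell cycle genes were followed through the neural stem cell lineage of the mouse ventricular-subventricular zone (V-SVZ), the germinal layer that lines the lateral ventricle. The genes were taken by name from a fixed list, with no threshold on their values, and all 45 were found among the 32285 genes of the count tables. They fall into 17 genes of the G1/S transition and DNA replication, 8 regulators of G1 and 20 genes of G2 and mitosis. The G1 regulators are the D-type cyclins, the kinases Cdk2, Cdk4 and Cdk6 and 2 inhibitors. Single cells of the V-SVZ were sequenced in 7 libraries of one-month-old mice (31 to 33 days after birth), each made from the combined tissue of 2 to 3 animals of both sexes. The 3 control libraries are labelled Prdmflox/flox, and their mice were littermates that carried no Cre. The 3 cKO libraries are hGFAP-Cre+/-; Prdm16flox/flox, so that Prdm16, which encodes a zinc finger transcriptional regulator, is deleted in cells in which the human GFAP promoter drives Cre, that is in embryonic radial glia and their descendants. The single DKO library is hGFAP-Cre+/-; Prdm16flox/flox; Vcam1flox/flox and also lacks the adhesion receptor Vcam1 in those cells. All libraries thus share the homozygous floxed Prdm16 allele, and no library carried Cre alone.

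Cell division begins when D-type cyclins, made in response to growth signals, activate Cdk4 and Cdk6 in G1. The kinases phosphorylate the retinoblastoma protein, which releases E2F factors to transcribe the replication genes. A second programme, bound by the DREAM and MuvB complexes and by B-Myb and FoxM1, raises the mitotic genes after replication. In the adult V-SVZ, mostly quiescent neural stem cells (NSCs) produce rapidly dividing transit amplifying progenitors (TAPs), which produce neuroblasts that still divide before they migrate and mature. Oligodendrocyte progenitor cells (OPCs) form a separate dividing population.

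The promoters of the G2/M and of the G1/S genes differed in the motifs they hold, and 6 of them are printed to show these. RefSeq windows of GRCm38.p6, from 250 bases before to 50 bases after the transcription start, were found for 37 of the 45 genes. The cell cycle homology region (TTTGAA or TTCGAA on either strand) was present in 14 of 18 windows of the G2/M genes (77.8%), in 2 of 15 windows of the G1/S genes (13.3%) and in 19.2% of all 32851 windows. The CCAAT box, which NF-Y binds, was present in 16 of the 18 G2/M windows, in 10 of the 15 G1/S windows and in 37.4% of all windows. An E2F motif (TTTCCCGC, TTTCGCGC, TTTGCCGC or TTTGGCGC on either strand, matches that may overlap each other) was found in 6 of the 15 G1/S windows, in 1 of the 18 G2/M windows and in 2.27% of all windows. A match is a match of letters only, and binding was not measured here.
The 170 bases before the start are printed 5′ to 3′ on the strand of the gene. For Top2a, Mki67 and Ube2c capitals mark the cell cycle homology region and the CCAAT box, in either orientation:
Top2a (GRCm38.p6 chr11:99024190-99024359, minus strand): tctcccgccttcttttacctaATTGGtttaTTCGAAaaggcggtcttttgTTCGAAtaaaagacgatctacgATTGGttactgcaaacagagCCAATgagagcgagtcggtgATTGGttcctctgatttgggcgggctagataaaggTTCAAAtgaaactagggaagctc
Mki67 (GRCm38.p6 chr7:135716380-135716549, minus strand): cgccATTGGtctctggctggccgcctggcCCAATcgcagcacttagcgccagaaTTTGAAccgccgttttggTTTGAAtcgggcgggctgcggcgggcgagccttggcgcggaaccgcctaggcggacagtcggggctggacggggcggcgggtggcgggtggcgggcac
Ube2c (GRCm38.p6 chr2:164769759-164769928, plus strand): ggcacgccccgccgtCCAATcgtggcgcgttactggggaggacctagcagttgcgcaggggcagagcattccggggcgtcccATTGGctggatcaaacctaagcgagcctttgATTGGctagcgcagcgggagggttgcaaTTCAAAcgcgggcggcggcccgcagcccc
For Mcm7, Mcm6 and Mcm5, which encode subunits of the replicative helicase, capitals mark the E2F motif:
Mcm7 (GRCm38.p6 chr5:138171884-138172053, minus strand): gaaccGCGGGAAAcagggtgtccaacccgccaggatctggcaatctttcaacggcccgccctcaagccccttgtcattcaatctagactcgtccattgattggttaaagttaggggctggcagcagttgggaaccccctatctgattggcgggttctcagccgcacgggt
Mcm6 (GRCm38.p6 chr1:128359706-128359875, minus strand): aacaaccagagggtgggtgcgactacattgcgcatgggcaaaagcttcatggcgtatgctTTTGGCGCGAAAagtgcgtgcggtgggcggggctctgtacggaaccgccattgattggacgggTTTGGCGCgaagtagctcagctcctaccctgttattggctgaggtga
Mcm5 (GRCm38.p6 chr8:75109339-75109508, plus strand): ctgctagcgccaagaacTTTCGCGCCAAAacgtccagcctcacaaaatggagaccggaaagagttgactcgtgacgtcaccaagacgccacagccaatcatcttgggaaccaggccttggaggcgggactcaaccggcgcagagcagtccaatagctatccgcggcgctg
In Top2a 3 cell cycle homology regions and 4 CCAAT boxes lay within these 170 bases, and in Mcm6 3 overlapping or separate E2F motifs began 110, 106 and 47 bases before the start.

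After a filter on detected genes and mitochondrial counts, 43346 of 65049 barcodes were kept, with a median of 4959.5 to 8317.5 unique molecular identifiers (UMIs) a cell in the 7 libraries. Cell types were assigned by scores of marker genes that include none of the 45 members, which gave 3576 NSC-like, 2847 TAP-like, 9248 neuroblast-like and 889 OPC-like cells. The markers were used in the gates, so their presence there is a description: Egfr was detected in 87.9% of the TAP-like cells, Dcx in 96.5% of the neuroblast-like cells, Pdgfra in 98.8% of the OPC-like cells, and Thbs4 and Gfap in 69.7% and 61.2% of the NSC-like cells. TAP-like cells were the deepest of the 4 types, with a median of 16759 UMIs against 6702.5, 6565.5 and 7592 in NSC-, neuroblast- and OPC-like cells, so levels are given as CPM, the UMIs of a gene summed over the cells of 1 type in 1 library and scaled to the total of those cells. Libraries cKO 2 and cKO 3 stood apart, with 49.8% and 47.2% of their barcodes kept against 70.2% to 74.7% in the other 5. cKO 2 was also the smallest, with 90 NSC-like, 114 TAP-like, 379 neuroblast-like and 29 OPC-like cells. Control 2 differed in another way, with 33.0% of its kept cells in no gate against 7.90% to 19.3% in the other libraries. Within the NSC gate Prdm16 measured 73.9, 62.7 and 69.6 CPM (control 1 to 3), 58.7, 49.6 and 39.5 CPM (cKO 1 to 3) and 55.3 CPM (DKO). Vcam1 measured 146, 127 and 101 CPM, 139.9, 152 and 166 CPM and 89.5 CPM. The libraries read the 3′ ends of transcripts, which a deletion of internal exons can leave in place, so these values are no check of the deletion.

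Nearly the whole set was higher in TAP-like than in NSC-like cells. With library as a block, 44 of the 45 members were higher and 1 was lower in TAP-like than in NSC-like cells (edgeR quasi-likelihood test, adjusted p under 0.05), where 77% of all 14648 genes tested passed in either direction, 35.2% higher and 41.8% lower. A summed level does not tell apart more cells in cycle from more RNA of these genes in each cell. The median log2 fold change was 4.73 over the 20 G2/M genes, 3.51 over the 17 G1/S genes and 2.23 over the 8 G1 regulators, against -0.11 over all genes. Across the 7 libraries, Mki67, the standard marker of cells in cycle, had a lowest, median and highest level of 0, 25.3 and 40.7 CPM in NSC-like and 381, 686 and 783 CPM in TAP-like cells (log2 fold change 4.64 ± 0.27, adjusted p = 4.39e-12). Top2a, the topoisomerase that untangles sister chromatids, stood at 3.04, 48.7 and 62.5 CPM in NSC-like and 881, 1189 and 1499 CPM in TAP-like cells (4.87 ± 0.29, adjusted p = 7.36e-12). The ranges of the 2 types did not overlap for either gene. The G2/M genes moved as a tight group, from 3.83 ± 0.17 for the B-type cyclin Ccnb2 to 4.98 ± 0.20 for cyclin A2 (Ccna2), and the other 18 lay between.

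The G1/S genes were spread more widely. The largest rise was that of Rrm2 (4.82 ± 0.21 on the log2 scale), the regulated subunit of ribonucleotide reductase, followed by the origin licensing factor Cdc6 (4.58 ± 0.19) and the cyclin E gene Ccne1 (4.55 ± 0.22). The smallest rises were those of Mcm4 (2.16 ± 0.12) and of the histone mRNA binding protein gene Slbp (2.43 ± 0.09). Mcm2 had a lowest, median and highest level of 5.97, 6.45 and 11.6 CPM in NSC-like and 88.5, 112 and 188 CPM in TAP-like cells. The replication clamp gene Pcna, which also acts in DNA repair, was already at 68.0, 73.1 and 96.9 CPM in NSC-like cells and reached 487, 554 and 615 CPM in TAP-like cells (2.74 ± 0.13, adjusted p = 3.32e-14).

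**Figure D1:**
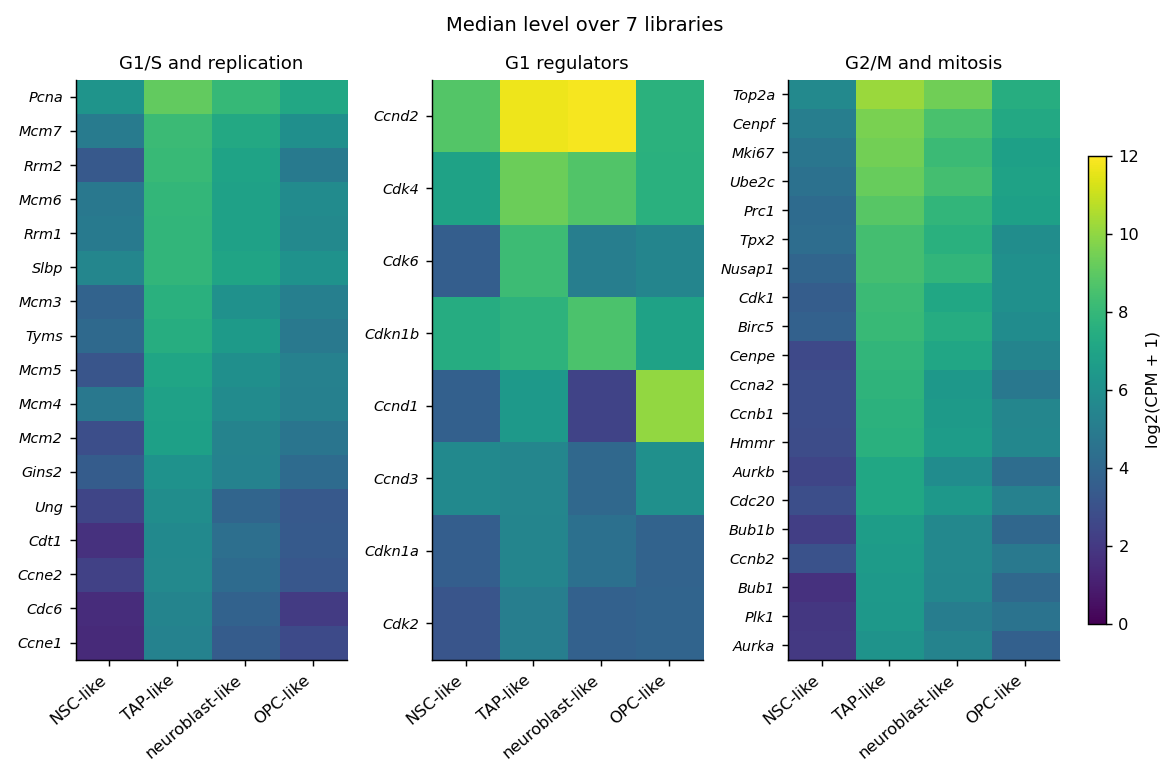
Median level over the 7 libraries of each of the 45 members (rows, sorted by level in TAP-like cells) in the 4 cell types (columns), as log2(CPM + 1) by colour, in panels for the 17 G1/S, 8 G1 regulator and 20 G2/M genes. The TAP-like column is the brightest for nearly every G1/S and G2/M gene, while Ccnd1 is brightest in OPC-like and Cdkn1b in neuroblast-like cells.

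The G1 regulators did not move as a group. Cdk6 had the largest rise of the 8, from 8.06, 10.9 and 17.2 CPM (lowest, median and highest) in NSC-like to 198, 301 and 396 CPM in TAP-like cells (4.61 ± 0.18, adjusted p = 6.06e-16). The related kinase gene Cdk4 rose from 93.2, 118 and 154 to 595, 642 and 988 CPM (2.56 ± 0.06, adjusted p = 1.99e-24). Among the D-type cyclins, Ccnd2 rose from 353, 443 and 602 to 2716, 3271 and 4385 CPM (2.88 ± 0.22, adjusted p = 4.28e-10). Ccnd1 rose from 7.96, 11.7 and 34.4 to 19.3, 87.7 and 99.4 CPM (2.49 ± 0.30, adjusted p = 3.25e-07). The Ccnd1 ranges overlapped through cKO 2, where the order was the opposite (34.4 CPM in NSC-like and 19.3 CPM in TAP-like cells). Ccnd3 was the single member that was lower, at 46.2, 50.6 and 87.1 CPM in NSC-like and 40.1, 44.4 and 64.2 CPM in TAP-like cells (-0.32 ± 0.10, adjusted p = 0.00616). Its ranges overlapped, and the call was lost with no expression filter (log2 fold change -0.16, adjusted p = 0.340), without control library 3 (-0.29, adjusted p = 0.0507) and without the barcodes that libraries share (-0.20, adjusted p = 0.0795). The 2 inhibitors of cyclin-dependent kinases were higher in TAP-like cells as well: Cdkn1a (p21) was at 4.05, 10.97 and 28.2 CPM in NSC-like and 24.6, 42.4 and 60.3 CPM in TAP-like cells (1.64 ± 0.20, adjusted p = 9.25e-08). Cdkn1b (p27) was at 101, 169.7 and 184 CPM and 172, 213 and 239 CPM, respectively (0.45 ± 0.07, adjusted p = 1.45e-06).

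From TAP-like to neuroblast-like cells 42 of the 45 members fell, 1 rose and 2 did not pass the test, where 70.4% of all genes passed in either direction, 33.2% lower and 37.1% higher. By their medians the G1/S and G2/M genes fell by less than they had risen. The median was -1.09 over the G1/S genes and -0.90 over the G2/M genes, against 0.06 over all genes. The uracil glycosylase gene Ung (-1.97 ± 0.10), Ccne1 (-1.84 ± 0.14) and Cdc6 (-1.75 ± 0.12) fell most among the G1/S genes. Of the G2/M genes, the mitotic kinase gene Plk1 (-1.38 ± 0.10) and Ccna2 (-1.33 ± 0.14) fell most. The spindle protein gene Nusap1, at 247, 338 and 453 CPM in TAP-like and 179.5, 240.5 and 350.4 CPM in neuroblast-like cells, did not pass (-0.33 ± 0.18, adjusted p = 0.110). Nusap1 did pass with RLE factors, a mitochondrial limit of 5%, the stricter gate or without control library 3, with log2 fold changes of -0.41, -0.40, -0.56 and -0.50.

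The G1 regulators parted at this step. Ccnd1 fell to 3.67, 4.26 and 6.49 CPM (-3.80 ± 0.30, adjusted p = 9.09e-10) and Cdk6 to 18.7, 34.5 and 52.2 CPM (-2.95 ± 0.14, adjusted p = 6.78e-14), the 2 largest falls of all members. Ccnd2 stayed high, at 2452, 3675 and 4968 CPM, and its difference did not pass (0.20 ± 0.21, adjusted p = 0.391). Cdk4 was at 316, 426 and 663 CPM (-0.55 ± 0.06, adjusted p = 1.49e-09). Ccnd3 fell to 14.3, 15.4 and 25.7 CPM (-1.33 ± 0.10, adjusted p = 2.39e-12). Cdkn1b was the single member that rose, to 282, 386 and 417 CPM (0.90 ± 0.07, adjusted p = 9.81e-13), with no overlap between the 2 types. Cdkn1a fell to 15.2, 20.3 and 26.9 CPM (-0.79 ± 0.17, adjusted p = 2.18e-04).

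**Figure D2:**
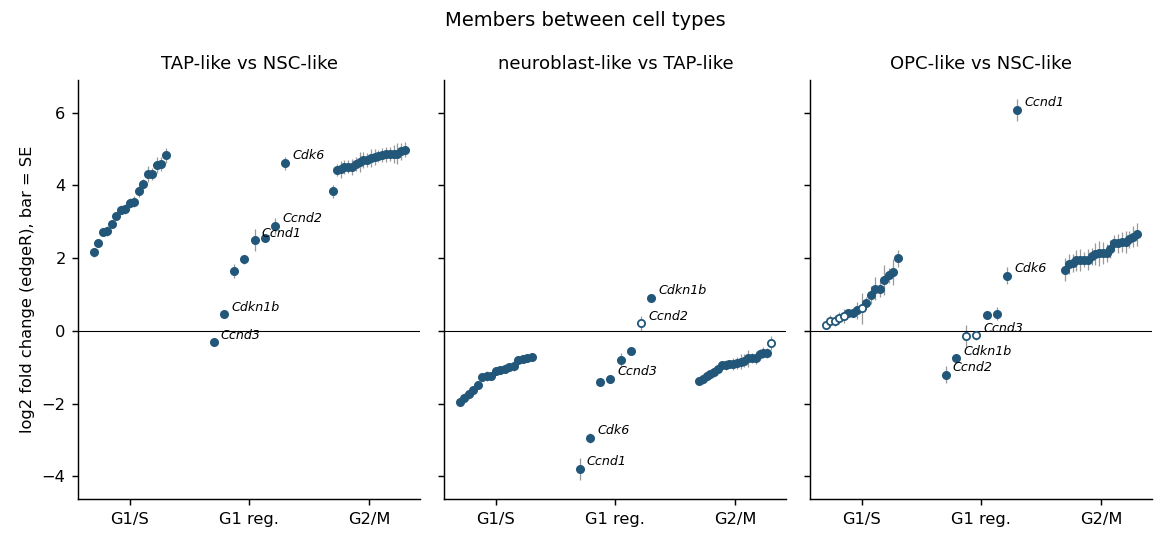
Log2 fold changes (edgeR, bars are standard errors over 7 libraries) of the 45 members between cell types, each point 1 gene sorted within its list, with filled points past the adjusted p threshold of 0.05 and open points not. All 37 G1/S and G2/M genes lie above 0 on the left, and below 0 in the middle, where Cdkn1b is the filled point above 0. On the right the G2/M genes lie between 1.68 and 2.66 and Ccnd1 lies apart at 6.08.

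OPC-like cells carried a mitotic programme above that of NSC-like cells and below that of TAP-like cells. Against NSC-like cells 35 members were higher, 2 were lower and 8 did not pass, where 65.2% of all genes passed, 32.9% higher and 32.3% lower. All 20 G2/M genes were higher (median log2 fold change 2.13), compared with 11 of the 17 G1/S genes (median 0.62). Mki67 was at 35.0, 112 and 215 CPM and Top2a at 102, 175 and 344 CPM in OPC-like cells. There Mcm2 was at 15.3, 24.0 and 52.9 CPM and Pcna, whose difference from NSC-like cells did not pass (0.28 ± 0.15, adjusted p = 0.110), at 60.5, 146 and 159 CPM. The D-type cyclins were exchanged: Ccnd1 stood at 792, 1076 and 1345 CPM, above every library of each other type (6.08 ± 0.30, adjusted p = 7.67e-13 against NSC-like and 3.59 ± 0.24, adjusted p = 5.81e-11 against TAP-like cells). Ccnd2, at 105, 199.6 and 659 CPM, was lower than in either (-1.21 ± 0.23, adjusted p = 1.45e-04 and -4.09 ± 0.25, adjusted p = 1.05e-11). Its range overlapped that of NSC-like cells, and in cKO 1 it was higher in OPC-like (659 CPM) than in NSC-like cells (575 CPM). Ccnd3 was at 50.5, 64.8 and 101 CPM and differed from neither NSC-like (-0.12 ± 0.12, adjusted p = 0.397) nor TAP-like cells (0.20 ± 0.12, adjusted p = 0.145) beyond the spread of the libraries. Cdk6 was at 31.1, 42.4 and 57.3 CPM (1.51 ± 0.24, adjusted p = 1.17e-05 against NSC-like cells), Cdk4 at 166, 197 and 272 CPM, Cdkn1a at 7.56, 13.0 and 21.5 CPM, and Cdkn1b at 74.3, 118 and 145 CPM, below NSC-like cells (-0.75 ± 0.08, adjusted p = 4.28e-09). Against TAP-like cells 43 members were lower and Ccnd1 was higher, where 70.8% of all genes passed, 34.7% lower and 36% higher.

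The share of cells in cycle was then counted cell by cell. Each cell was thinned to 2000 UMIs, since a deeper cell shows more genes, and was called positive with UMIs of at least 3 different genes of a list. The G1/S list was positive in a median of 66.7% of the TAP-like cells of a library (range 49.6% to 73.2%), in 18.3% of neuroblast-like (7.43% to 22.8%), 11.5% of OPC-like (6.67% to 17.4%) and 2.78% of NSC-like cells (0% to 3.22%). The G2/M list was positive in 56.2% (48.5% to 61.9%), 20.1% (8.49% to 21.6%), 8.14% (3.45% to 9.23%) and 1.23% (0% to 3.98%) of the same cells. Oligodendrocyte-like and neuron-like cells, which do not divide, gave the background at the same depth. Their G1/S shares were 0% to 1.97% and 0% to 1.96%, and their G2/M shares 0% to 1.72% and 0% to 2.73%. The shares of TAP-, neuroblast- and OPC-like cells lay above these ranges in every library, while those of NSC-like cells overlapped them. The OPC-like G2/M share of cKO 2 was 1 of 29 cells. Within each library but cKO 2, where all were 0%, the NSC-like G1/S share was above both background shares. Pooled it was 2.49%, against 0.897% in oligodendrocyte-like and 0.812% in neuron-like cells. The G2/M share did not keep this order, with 0.334% in control 2 against 0.493% and 0.637%. Before thinning, an Mki67 UMI was found in a median of 4.24% of NSC-like and 5.01% of oligodendrocyte-like cells (median depths 6702.5 and 17927 UMIs), against 66.6% of TAP-like cells. The NSC-like share for Mki67 was thus below that of the deeper oligodendrocyte-like cells. Without thinning the pooled shares were 22.8% G1/S and 5.01% G2/M in NSC-like cells, 92.8% and 76.5% in TAP-like, 45.3% and 21.4% in neuroblast-like, 31.8% and 11.6% in OPC-like and 33.5% and 5.31% in oligodendrocyte-like cells. Thinning left out 326 NSC-like, 35 TAP-like, 488 neuroblast-like and 41 OPC-like cells with too few UMIs.

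**Figure D3:**
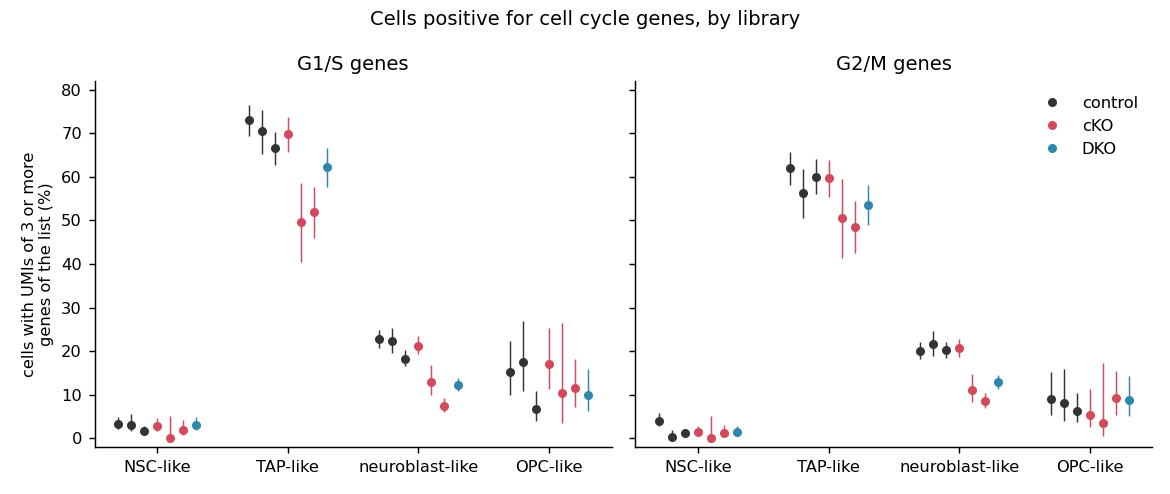
Percentage of cells with UMIs of at least 3 G1/S genes (left) or G2/M genes (right) at 2000 UMIs a cell, with 1 point for each library and Wilson 95% intervals, which cover counting error only. TAP-like cells sit between 48.5% and 73.2%, and in neuroblast-like cells libraries cKO 2, cKO 3 and DKO sit below the other 4.

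The 2 lists overlapped in the same cells to different degrees. Of TAP-like cells, 42.3% were positive for both lists, 24.0% for G1/S alone, 15.2% for G2/M alone and 18.6% for neither. In neuroblast-like cells 10.0% were positive for both, 7.34% for G1/S alone and 7.23% for G2/M alone. In OPC-like cells G1/S alone was the largest positive class (8.96%, against 2.95% for both and 4.60% for G2/M alone). Of all 4091 cells positive for G2/M genes, 39.5% were TAP-like, 36.9% neuroblast-like, 1.56% OPC-like and 1.37% NSC-like, and 15.8% fell in no gate. The highest marker score of those 647 ungated cells was that of TAPs in 35.1%, of neuroblasts in 30.1%, of fibroblasts in 9.89% and of NSCs in 9.12%. The last are 59 cells, against 56 G2/M positive cells within the NSC gate. The NSC-like shares thus leave out positive cells that scored highest for NSC markers. In control 2 27.5% of the G2/M positive cells fell in no gate, against 11.2% to 17.9% in the other libraries.

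The NSC-, TAP- and neuroblast-like gates were also cut into 3 bins each by their marker scores, from the least to the most advanced cells, which gave 9 steps along the neuronal lineage. The G1/S share (all libraries pooled) was 1.11%, 1.48% and 4.89% over the NSC-like bins, 64.8%, 64.6% and 69.4% over the TAP-like bins and 30.96%, 13.9% and 7.19% over the neuroblast-like bins. The G2/M share was 47.5%, 59.9% and 65.0% over the TAP-like bins, and it was above the G1/S share in the first neuroblast-like bin (35.6%) and below it in the last (2.98%). Within the TAP-like cells Ccnd1 went down from 134 over 75.0 to 33.3 CPM while Ccnd2 went from 3139 over 3206 to 4554 CPM. Cdk6 was at 328, 277 and 308 CPM in TAP-like cells and dropped to 64.4, 19.6 and 11.5 CPM in neuroblast-like cells. The libraries differed within the TAP-like bins. In control 1 to 3 Cdk6 was at 389, 338 and 303 CPM in the first bin and 396, 402 and 327.5 CPM in the last. In cKO 1 to 3 it was at 351, 256 and 294 CPM in the first bin and 277, 195 and 178.5 CPM in the last, so the groups overlapped in the first bin. Cdkn1b went from 185 to 238 CPM over the TAP-like bins and was level over the neuroblast-like bins, at 376, 372 and 379 CPM. The steps are descriptions of pooled cells and were not tested.

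**Figure D4:**
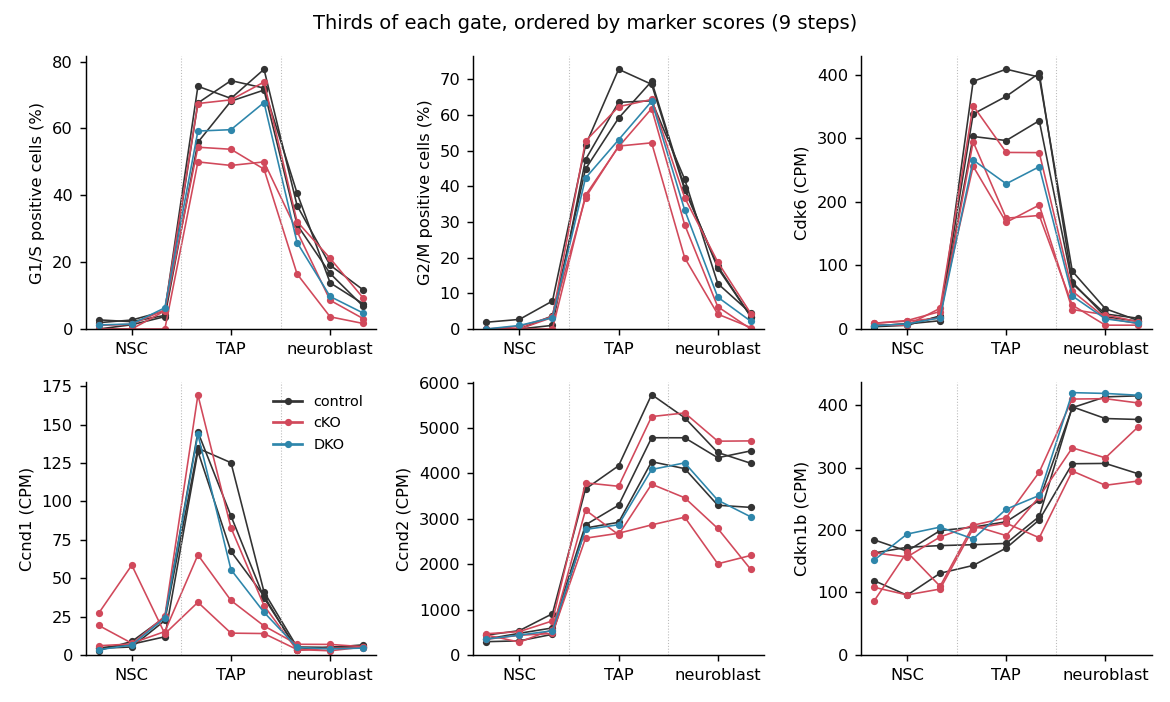
G1/S and G2/M positive cells (%) and the levels of Cdk6, Ccnd1, Ccnd2 and Cdkn1b (CPM) over 9 steps, 3 bins of each of the NSC-, TAP- and neuroblast-like gates ordered by marker scores, with 1 line for each library coloured by genotype. Ccnd1 peaks in the first TAP-like bin and Ccnd2 near the end of the TAP-like bins, and Cdk6 drops at the first neuroblast-like bin, in the pooled values above.

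Other cell cycle genes were counted in the same way. All 28 further G2/M genes and all 25 further S phase genes tested were higher in TAP-like than in NSC-like cells (medians 4.39 and 3.49), and in neuroblast-like against TAP-like cells all 28 and 24 of 25 were lower, where 33.2% of all genes were. Hmgb2, a chromatin protein of dividing cells, had a median level of 286, 4223, 1871 and 380 CPM in NSC-, TAP-, neuroblast- and OPC-like cells. The exception was Cdca7, a chromatin factor of the S phase list, at 32.2, 339.9, 420.4 and 28.0 CPM, which was higher in neuroblast-like than in TAP-like cells (log2 fold change 0.51, adjusted p = 0.0197). Of the 15 genes of the E2F, Rb and MuvB group 12 were higher and 2 lower in TAP-like cells than in NSC-like cells. The retinoblastoma gene Rb1 was lower (-0.49, adjusted p = 1.50e-07), and the E2F partner Tfdp1 was higher (2.66). All 8 checkpoint genes, that is 7 kinases and phosphatases and the p53 gene Trp53, were higher in TAP-like than NSC-like cells and lower in neuroblast-like than TAP-like cells, among them Wee1, which restrains entry into mitosis, at medians of 10.7, 97.6, 43.7 and 19.0 CPM. Of the 6 other inhibitors of cyclin-dependent kinases 5 were higher in TAP-like cells than in NSC-like cells, and 2, Cdkn2d and Cdkn1c (p57), went on to higher levels in neuroblast-like cells (0.53 and 1.09). Of the 10 targets of p53, 7 were higher and 3 lower in TAP-like cells, with a median of 0.55. Of all genes 35.2% were higher and 41.8% lower in TAP-like than NSC-like cells, and 33.2% were lower and 37.1% higher in neuroblast-like than TAP-like cells.

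The comparison of cKO with control libraries asked whether loss of Prdm16 changes the cycle within each stage. No member passed in any of the 4 types, where the share of all genes that passed was 0% in NSC-like, 0% in TAP-like, 0.0339% in neuroblast-like and 0.00889% in OPC-like cells. At an unadjusted p under 0.05 there were 4 of 44 members tested in NSC-like, 7 of 45 in TAP-like, 7 of 45 in neuroblast-like and 2 of 43 in OPC-like cells, against 11%, 8.13%, 8.51% and 5.12% of all genes. DESeq2 called 1 member, Ccne1 in NSC-like cells, where it called 2.11% of all genes. The signs of the fold changes were uneven: 43 of 45 members were lower in cKO neuroblast-like cells (median -0.35, against 0.01 over all genes), 38 of 45 in TAP-like (median -0.21, against -0.0065) and 35 of 44 in NSC-like cells (median -0.36, against -0.012). In OPC-like cells 32 of 43 were higher (median 0.20, against -0.0009 over all genes). Genes of the cell cycle vary together from cell to cell, so the members are not independent observations.

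In neuroblast-like cells the G2/M positive share was 20.1%, 21.6% and 20.1% in control libraries 1 to 3, 20.6%, 11.1% and 8.49% in cKO libraries 1 to 3 and 12.9% in DKO. cKO 1 lay within the controls and cKO 2 and cKO 3 below them. The G1/S share followed the same pattern, at 22.8%, 22.3% and 18.3% in control, 21.2%, 13.0% and 7.43% in cKO and 12.2% in DKO libraries. Mki67 in these cells was at 420.2, 262 and 427 CPM in control, 318, 222 and 185 CPM in cKO and 293 CPM in DKO libraries (-0.55 ± 0.24, adjusted p = 0.572). Mcm2 was at 63.5, 64.5 and 40.6 CPM in control, 55.8, 30.8 and 18.4 CPM in cKO and 26.5 CPM in DKO libraries (-0.60 ± 0.39, adjusted p = 0.682). The groups overlapped for both genes through cKO 1. All 3 cKO libraries lay below all 3 controls for 4 of 45 members, Ccne1, Cdc6, the spindle checkpoint gene Bub1b and Cdk6, as did 7.78% of all genes, and above them for none (5.02% of all genes). Without cKO 1, 9 members passed in neuroblast-like cells, all lower, among them 4 helicase subunits (Mcm2, Mcm3, Mcm4 and Mcm6), Ccnb1, Cdc20, Cenpe, Tpx2 and Cdk6, where 2.76% of all genes passed in that fit. Without cKO 2 and cKO 3 none passed. The lower shares of cKO 2 and cKO 3 were seen at each neuroblast-like bin, where the G2/M share was 39.0%, 41.9% and 39.5% in control and 36.8%, 29.2% and 19.9% in cKO libraries at the first bin and 17.6%, 12.7% and 17.1% in control and 18.8%, 6.25% and 4.17% in cKO libraries at the second. Markers of other types moved with these libraries: in neuroblast-like cells the summed level of the 7 neuron markers was 129, 139 and 166 CPM in control and 103, 178 and 287 CPM in cKO libraries. That of the 8 TAP markers was 284, 277 and 216 CPM in control and 254, 211 and 189.7 CPM in cKO libraries. That of the 6 NSC markers was 361, 384 and 324 CPM in control and 336, 163 and 256 CPM in cKO libraries, and that of the 6 ependymal markers 25.1, 35.6 and 75.8 CPM and 45.2, 102 and 126 CPM. The 6 OPC markers summed to 205, 134 and 180.1 CPM in control and 148, 261 and 217 CPM in cKO libraries. For each of these lists cKO 2 and cKO 3 lay outside the controls, and the sums of the other marker lists are not given here. No marker of the lists given was at 0, but many were under 10 CPM, so a sum can rest on few genes. These were 5 of the 6 OPC, 3 of the 6 NSC and 3 of the 6 ependymal markers, and 2 neuron and 2 TAP markers. The part of these markers in the result was not tested. Within the version of Cell Ranger given in the file headers, the median difference of the G2/M genes was -0.18 for version 6.0.1 (control 1 and 2, cKO 1 and 2) and -0.84 for version 6.1.1 (control 3 and cKO 3).

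In TAP-like cells the G1/S genes were lower in cKO by fold change for 17 of 17 members (median -0.28) and the G2/M genes for 15 of 20 (median -0.07). The G2/M direction did not hold within both Cell Ranger versions, with a median difference of 0.06 within version 6.0.1 and -0.36 within version 6.1.1. The helicase gene Mcm3 was at 243, 220.2 and 194 CPM in control, 173, 151 and 141 CPM in cKO and 204 CPM in DKO libraries (-0.44 ± 0.14, adjusted p = 0.383). Mcm2 was at 188, 169 and 112 CPM in control, 130.1, 96.3 and 88.5 CPM in cKO and 99.9 CPM in DKO libraries (-0.51 ± 0.18, adjusted p = 0.440). All 3 cKO libraries lay below all 3 controls for Mcm3, Mcm4, Slbp and Cdk6, 4 of 45 members, as did 6.23% of all genes. No member lay above all controls in this way, where 5.1% of all genes did. Pcna, at 615, 554 and 541 CPM in control and 575, 559 and 487 CPM in cKO libraries, and Top2a, at 1343, 981 and 1329 CPM in control and 1499, 1064 and 881 CPM in cKO libraries, overlapped between the groups. The G1/S share was 73.2%, 70.6% and 66.7% in control, 69.9%, 49.6% and 51.9% in cKO and 62.3% in DKO libraries. The G2/M share was 61.9%, 56.2% and 60.1% in control, 59.7%, 50.4% and 48.5% in cKO and 53.6% in DKO libraries, again with cKO 1 among the controls. Without thinning all 3 cKO libraries lay below all 3 controls for both lists. The G2/M shares were then 77.6%, 85.4% and 80.1% in control and 71.9%, 71.1% and 68.2% in cKO libraries. The G1/S shares were 92.4%, 97.7% and 94.3% in control and 89.2%, 90.4% and 89.3% in cKO libraries. Types that do not divide showed such a separation without thinning too. The G2/M shares of oligodendrocyte-like cells were 6.48%, 14.8% and 5.64% in control and 2.85%, 1.19% and 1.77% in cKO libraries. The G1/S shares of neuron-like cells were 24.1%, 34.1% and 30.2% in control and 22.4%, 14.7% and 20.2% in cKO libraries. For the other list of each of these types the groups overlapped. In the same cells the 7 neuron markers summed to 87.4, 99.2 and 103 CPM in control and 88.6, 172 and 197 CPM in cKO libraries. The 9 neuroblast markers summed to 1014, 1108 and 837 CPM in control and 876, 737 and 703 CPM in cKO libraries, and the 6 OPC markers to 63.6, 48.7 and 54.0 CPM and 58.3, 75.8 and 67.2 CPM. No marker of these lists was at 0, but 5 of the 7 neuron and 5 of the 6 OPC markers were under 10 CPM. For each of these lists cKO 2 and cKO 3 lay outside the controls, and the sums of the other marker lists are not given here. The part of these markers in the shares was not tested. Ccnd1 showed the libraries that stood apart most plainly, at 99.4, 87.7 and 89.6 CPM in control, 94.7, 19.3 and 36.6 CPM in cKO and 69.6 CPM in DKO (-0.80 ± 0.56, adjusted p = 0.817). It passed as one of 2 members, with Cdk6, without cKO 1 (log2 fold change -1.59, adjusted p = 5.45e-04), a fit in which 3.82% of all genes passed, and was at 0.05 without cKO 2 and cKO 3 (adjusted p = 1.0).

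In TAP-like cells Cdk6 was at 396, 364 and 312 CPM in control, 301, 198 and 201 CPM in cKO and 248 CPM in DKO libraries (-0.56 ± 0.17, adjusted p = 0.371). In neuroblast-like cells Cdk6 was at 52.2, 44.1 and 42.1 CPM in control, 34.5, 22.6 and 18.7 CPM in cKO and 26.4 CPM in DKO libraries (-0.79 ± 0.20, adjusted p = 0.474). There it passed in edgeR fits with the replicate number as a block (-0.83, adjusted p = 0.0271), with no expression filter (-0.81, 0.00139) and without cKO 1 (-1.10, 0.00417). In the last of these fits 2.76% of all genes passed. It was not called with DESeq2 or under the other settings tried. In both types every cKO library and the DKO library lay below every control, which held for cKO 1 as well. In NSC-like cells the order of the control and cKO libraries was the opposite, with 8.06, 10.3 and 10.9 CPM in control, 15.3, 17.2 and 12.8 CPM in cKO and 10.7 CPM in DKO (0.66 ± 0.27, adjusted p = 0.385). The NSC-like difference turned to -0.13 when equal numbers of cells were drawn from each library. In OPC-like cells the groups overlapped, at 38.9, 47.5 and 31.1 CPM in control, 42.4, 57.3 and 36.8 CPM in cKO and 48.0 CPM in DKO libraries. Within Cell Ranger versions 6.0.1 and 6.1.1 the differences were 0.86 and 0.27 in NSC-like, -0.56 and -0.64 in TAP-like and -0.71 and -1.16 in neuroblast-like cells, on the log2(CPM + 1) scale and of the same sign in each.

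**Figure D5:**
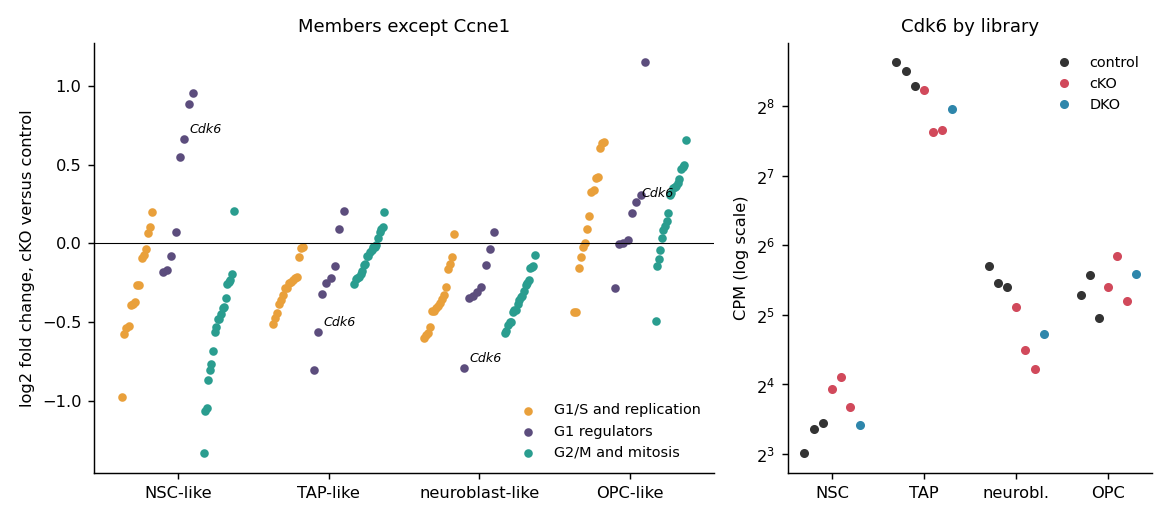
Left, log2 fold changes of cKO against control for the members tested in each cell type, 1 point for each gene and coloured by list, with Ccne1 left out of all types because it had no UMI in cKO NSC-like cells. Right, Cdk6 in CPM on a log2 axis, 1 point for each library. Most points of TAP- and neuroblast-like cells lie below 0, and Cdk6 lies lower in cKO than in control libraries in TAP- and neuroblast-like cells and higher in NSC-like cells, where the difference turned with equal numbers of cells (-0.13).

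Whether the effect of cKO differed between stages was tested by interaction terms. Between TAP-like and NSC-like cells 2 of 45 members passed, where 0.258% of all genes did. For Cdk6 the effect in TAP-like cells was lower by 1.11 ± 0.22 on the log2 scale than in NSC-like cells (adjusted p = 0.0203). The step from NSC-like to TAP-like cells in the same library was 5.45, 5.02 and 4.72 in control, 4.21, 3.45 and 3.87 in cKO and 4.41 in DKO libraries (difference of log2(CPM + 1)). All 3 cKO steps were below all 3 control steps, which restates the values behind the call and is no further support for it. The call held under 8 of 14 other settings and was lost under 6, among them the stricter gate (adjusted p = 0.430), the removal of doublets (0.0881) and the fits without cKO 2 (0.166), cKO 3 (0.239), control 1 (0.214) or control 2 (0.144). Equal numbers of cells, which turned the NSC-like difference, was not among these settings. The other was Ccne1, which had 14, 10 and 14 UMIs in the NSC-like cells of the control libraries, 0 in each of the 3 cKO libraries and 10 in DKO. That is 38 UMIs of 2032 cells against 0 of 949, pooled over the libraries of each group. With 3 counts, which a count of 0 allows, in place of the 0, the pooled control level was 6.81-fold that of cKO. This figure holds neither the counting error of the controls nor the spread between libraries, and is no bound. In cKO 2 alone 3 counts are 3.04 CPM, against 3.13, 3.32 and 1.88 CPM in control libraries. Its interaction was lost under 5 of 14 settings (mitochondrial limit of 5%, stricter gate, and without cKO 3, control 1 or control 2). In TAP-like cells Ccne1 was at 47.6, 49.0 and 35.2 CPM in control and 38.7, 28.6 and 32.0 CPM in cKO libraries. No member passed between neuroblast-like and TAP-like cells (0.0754% of all genes) or between OPC-like and TAP-like cells (0.176%), with 0 and 7 members at an unadjusted p under 0.05, against 7.09% and 9.24% of all genes. On simulated data the neuroblast- against TAP-like fit recovered 39% of genes changed by 1 on the log2 scale, so it can miss such effects.

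In NSC- and OPC-like cells the levels of most members were low, and 1 library could decide the level of a single gene. The median difference of the G2/M genes of NSC-like cells was negative within both Cell Ranger versions. It was -0.96 within version 6.0.1 (19 of 20 genes lower), whose cKO libraries are cKO 1 and cKO 2. Among the 20 genes cKO 1 lay below both control 1 and control 2 for Cdk1 only (9.46 against 13.4 and 11.3 CPM), and cKO 2 held 90 NSC-like cells. The median difference was -0.85 within version 6.1.1 (20 of 20 lower), which holds control 3 and cKO 3 only. The share of all genes lower within a version is not given here. All 3 NSC-like cKO values lay below all 3 controls for Ccne1 and the mitotic kinase gene Cdk1, 2 of 44 members (9.12% of all genes), and above them for Ccnd1 and Cdk6 (5.69% of all genes). In OPC-like cells no member lay below (8.65% of all genes) or above all controls (2.7%). In NSC-like cells Mki67 was at 40.7, 8.63 and 39.1 CPM in control and 25.3, 0 and 9.29 CPM in cKO libraries. Top2a was at 62.5, 18.6 and 56.8 CPM in control and 56.5, 3.04 and 21.2 CPM in cKO libraries, with the lowest value of each in cKO 2, which held 90 such cells and had no UMI of 10 members (3 counts there are 3.04 CPM). Neither list was positive in any of its 70 NSC-like cells of sufficient depth, which allows a share of up to 4.29%. Without cKO 1, 7 members passed in NSC-like cells, Ccnd1 and Ccnd3 higher and Ccne1, Mcm3, Mcm6, Nusap1 and Slbp lower, where 10.7% of all genes passed in that fit. In the same cells the 8 TAP markers summed to 387, 366 and 328 CPM in control and 341, 283 and 314 CPM in cKO libraries, and the 6 ependymal markers to 212, 243 and 288 CPM and 244, 359 and 399 CPM. The 7 oligodendrocyte markers summed to 277, 316 and 312 CPM in control and 235, 349.5 and 424 CPM in cKO libraries, and the 6 mural markers to 126, 124 and 128 CPM and 82.9, 72.9 and 89.4 CPM. No marker of these lists was at 0, but 5 of the 6 mural, 3 of the 8 TAP and 1 of the 7 oligodendrocyte markers were under 10 CPM. For each of these lists cKO 2 and cKO 3 lay outside the controls. That did not hold for every marker list. The OPC markers summed to 76.8, 77.7 and 112 CPM in control and 67.6, 80.0 and 81.8 CPM in cKO libraries (lowest, median and highest). The 6 NSC markers themselves summed to 5288, 5584 and 5683 CPM in control and 5336, 6435 and 6883 CPM in cKO libraries (lowest, median and highest). The part of all these markers in the result was not tested. Ccnd3 was at 48.8, 60.4 and 46.2 CPM in control and 50.6, 87.1 and 78.7 CPM in cKO libraries (0.55 ± 0.22, adjusted p = 0.390) and passed without cKO 1 (log2 fold change 0.79, adjusted p = 0.00721). Ccnd1 was at 11.2, 7.96 and 11.02 CPM in control and 12.8, 34.4 and 12.8 CPM in cKO libraries, the highest again in cKO 2. In OPC-like cells Ccnd2 was at 125, 168 and 199.6 CPM in control and 659, 105 and 258 CPM in cKO libraries (1.15 ± 0.71, adjusted p = 0.957), where cKO 1 lay above every other library. Ccnd1 overlapped at 1345, 1112 and 1017 CPM in control and 1076, 1319 and 854 CPM in cKO libraries (-0.00 ± 0.21, adjusted p = 0.999). The median difference of the G2/M genes in OPC-like cells was -0.38 within version 6.0.1 and 0.62 within version 6.1.1, so that the direction did not hold within both.

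The single DKO library gave no call of a member against control or cKO in any of the 4 types, where the share of all genes that passed against control was 0.015% in NSC-like, 0.0072% in TAP-like, 0.0135% in neuroblast-like and 0.0178% in OPC-like cells, and against cKO 0.0224%, 0.0144%, 0% and 0.0533%. At an unadjusted p under 0.05 there were, against control, 0 members in NSC-like (4.41% of all genes), 0 in TAP-like (3.57%), 3 in neuroblast-like (3.91%) and 6 in OPC-like cells (4.28%). Against cKO there were 2 in NSC-like (4.38%), 1 in TAP-like (2.34%), 0 in neuroblast-like (1.84%) and 3 in OPC-like cells (3.12%). It has no replicate of its own and was taken to vary like the other libraries. In TAP- and neuroblast-like cells its Cdk6 level lay below the 3 controls, as did its neuroblast-like shares, and its TAP-like G2/M share of 53.6% lay below the controls and above cKO 2 and cKO 3. In OPC-like cells Mki67 was at 215 CPM in DKO, above 176, 82.8 and 112 CPM in control and 81.8, 35.0 and 162 CPM in cKO libraries. Of the G1 inhibitors, Cdkn1b in neuroblast-like cells was at 405, 303 and 386 CPM in control, 407, 335 and 282 CPM in cKO and 417 CPM in DKO libraries (-0.03 ± 0.18, adjusted p = 0.966 for cKO). Its DKO value was the highest of all libraries, with cKO 1 and control 1 next, and the control and cKO libraries overlapped. Cdkn1a in TAP-like cells was at 24.6, 43.5 and 48.7 CPM in control, 25.2, 36.1 and 60.3 CPM in cKO and 42.4 CPM in DKO libraries (0.09 ± 0.46, adjusted p = 0.978 for cKO).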

How the data were processed

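Single cells of the V-SVZ were measured by 10x Genomics 3′ v3.1 chemistry. The authors aligned reads to mm10 with Cell Ranger and deposited filtered matrices of UMI counts, raw and not normalized. The file headers name version 6.0.1 for control 1 and 2 and cKO 1 and 2, and version 6.1.1 for the other 3 libraries. Library totals were 45758003 to 141353017 UMIs. Cells with 500 to 7000 genes and at most 10% mitochondrial counts were kept. Doublets (2.41%, Scrublet) were left in, and libraries shared 2 to 70 barcodes per pair.

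Cells were gated on mean marker scores (at least 0.5, a margin of 0.2 and 3 markers detected). Counts were summed per library and type and fitted in edgeR 4.0.16 (R 4.3.3; filterByExpr, TMM, quasi-likelihood, Benjamini-Hochberg over all genes), with library as a block between types. Values after ± are standard errors. DESeq2 1.42.0 was an alternative. Any of the 45 members could be named, with values in every library for 11 of them and for members called between genotypes, and of the other lists at most 3 genes each with the largest mean CPM. The members, the lists and the cell type markers of the gates were chosen with earlier results of these data known. The replicate is the library of 2 to 3 mice, and intervals and floors cover counting error only. Replicate numbers of control and cKO were not taken as pairs in the main fits. Correlations of same-numbered deviations were 0.171 to 0.390 for replicates 1 and 3 and -0.065 to 0.070 for replicate 2. Those of control 1 with cKO 3 and of control 3 with cKO 1 were -0.362 to -0.171. Whether the numbers pair the libraries is thus not known. Fits were tested on simulated data.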

Additional observations from a re-analysis of the deposited data

Results flagged for a closer look

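For 2 members the effect of cKO differed between TAP-like and NSC-like cells by an interaction term in edgeR. The difference for Cdk6 was -1.107 on the log2 scale (adjusted p = 0.0203), from a higher level in NSC-like and a lower level in TAP-like cells of the 3 cKO libraries. The difference for Ccne1 was 6.633 (adjusted p = 0.0112), which rests on the absence of its UMIs in the NSC-like cells of the 3 cKO libraries. The fitted size depends on the prior count and is no bound.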

How the results depend on the processing

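Of 302 recomputed counts of members and share differences, 272 stayed within 1.5 times the reported count or within 1 SD between replicates of the reported difference, and of 356 recomputed fold changes of single genes 328 kept their direction and side of the threshold. The number of members called for cKO against control was 1 with DESeq2 (2.11% of all genes) and 2 with no expression filter (3.23%) in NSC-like cells, 3 with no expression filter in neuroblast-like cells (1.24%), and 1 in OPC-like cells (0.0361%) without cKO replicates 2 and 3, an alternative chosen after seeing the data in which the lone cKO library borrows its spread from the control libraries. Leaving out 1 library each gave 0 to 7 in NSC-like, 0 to 2 in TAP-like and 0 to 9 in neuroblast-like cells, the highest always without cKO 1, where 10.7%, 3.82% and 2.76% of all genes were called. With the replicate number as a block 1 member was called in neuroblast-like cells (Cdk6, -0.83, adjusted p = 0.0271; 0.596% of all genes). For DKO against control it called Ccnb1 and Cdkn1a in TAP-like (2.58%) and Mcm2 in neuroblast-like cells (2.09%). Whether these replicate numbers pair the libraries is not known. Members whose cKO effect differed between TAP- and NSC-like cells numbered 7 with no expression filter (2.12% of all genes), 1 without doublets (0.276%), 1 at a mitochondrial limit of 5% (0.243%), 0 with the stricter gate (0.0581%) and 0 to 5 when 1 library was left out, with 5 without cKO 1 (7.15%). The number was 0 to 1 for neuroblast- against TAP-like cells and for OPC- against TAP-like cells when 1 library was left out (the 1 without cKO 1, with 4.12% and 2.41% of all genes), and 6 for the latter with no expression filter (1.64%). For DKO, equal numbers of cells gave 2 members against control (0.0943% of all genes) and 3 against cKO (0.151%) in NSC-like cells, and no expression filter gave 1 against cKO in OPC-like cells (0.116%).

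The difference of cKO minus control in the G2/M share of NSC-like cells was -1.03 percentage points as reported and -2.48 with no thinning, and in that of OPC-like cells -1.78 as reported, -4.76 with at least 2 genes and -5.60 with no thinning. For the G1/S share of NSC-like cells it was -1.11 as reported, -2.43 with at least 2 genes, -2.56 at 4000 UMIs and, with the direction turned, 1.17 with no thinning. For that of neuroblast-like cells it was -7.25 as reported and -15.3 with no thinning. By less than the spread between replicates, the sign also turned for the G2/M share of NSC-like cells without control replicate 1 (0.0412) and of OPC-like cells at a mitochondrial limit of 5% (0.238), and for the G1/S share of OPC-like cells (-0.0866 as reported) under 6 settings, up to 2.23 at 4000 UMIs. Directions of single genes turned for Cdk6 in NSC-like cells with equal numbers of cells (-0.13), for Ccnd1 in TAP-like cells (0.046) and Ccnd3 in NSC-like cells (-0.004) without cKO replicates 2 and 3, and for Ccnd3 between OPC- and TAP-like cells with no expression filter (-0.032). The cause was not tested. The number of cells limits the values of cKO 2 (90 NSC-like and 29 OPC-like cells), where 10 members in NSC-like and 2 in OPC-like cells had no UMI.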
